A study of Mus musculus with 10 samples.

Results

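The comparison described here set RNA polymerase II on the chromatin of mouse T helper 1 cells activated again for 2 h against the same kind of cells left unstimulated. It used 4 of the 10 samples of the series, the 2 polymerase libraries of each state, chosen by those labels, and the 2 polymerase libraries made after 30 min entered the fits as a group of their own and so also bear on which genes were tested, on the scaling and on the spread. Of 10419 genes with a promoter peak in any of the 6 polymerase libraries, 10213 had one in at least 1 of the 4 libraries and 7970 in all 4. All cells came from Balb/c DO11.10 mice, which carry a transgenic T cell receptor, and were CD4+ cells driven to the Th1 state with antibodies to CD3 and CD28, IL-12 and a block of IL-4. They were expanded with an IL-2 analogue at 200 IE/ml and kept without it for 1 day before activation. The 2 h group was then activated on plates coated with 5 µg/ml anti-CD3, with 2.5 µg/ml anti-CD28 in solution, and the unstimulated group, labelled NR, was not. Cells were fixed with 1% formaldehyde for 10 min, and polymerase was precipitated with antibody 8WG16. Nothing in the labels says whether the libraries of a group came from separate mice or cultures, so each p-value below is set against a spread among libraries that may be technical.

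RNA polymerase II transcribes the protein-coding genes and many noncoding ones. At many promoters it initiates and then pauses shortly after the start site, and at strongly transcribed genes it is also found along the gene body. A T cell whose receptor and CD28 are engaged switches on early transcription factors (the Egr, Fos and Nr4a families), NF-kB targets and cytokines within hours, and then enlarges its capacity for protein synthesis before it divides.

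Each library held a table of promoter peaks, each assigned by the authors to 1 gene, and a list of the highest point (summit) of every peak. The promoter tables held 9360 and 10383 peaks in the unstimulated libraries and 10549 and 10658 at 2 h, over 8359, 9405, 9310 and 9700 genes. Called promoter DNA came to 8.73 and 11.8 Mb without stimulation and 14.3 and 18.0 Mb at 2 h, and the median peak was 725, 920, 987 and 1229 bp wide. Background coverage, from which depth can be read, was 0.659 and 5.89 fragments per base in the unstimulated libraries and 2.48 and 5.55 at 2 h. Unstimulated replicate 1 was thus the shallowest of the 4, while unstimulated replicate 2 was as deep as 2 h replicate 2. The part of depth in the results was not tested. Of 8 T cell markers 7 had a promoter peak in each of the 4 libraries, and of 6 Th1 markers 5, 5, 5 and 6 did. None of 5 B cell, 3 NK cell, 3 Th17 and 4 stromal or epithelial markers had one in any of them, nor did Foxp3. Of 5 myeloid markers only Cd68 had a peak, in all 4 libraries, of 2 CD8 markers 0, 1, 0 and 1, and of 3 Th2 markers 1, 2, 3 and 3.

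Several early response and effector genes had far longer peaks after 2 h, although most of those listed did not pass the test. The summed length of called promoter peaks assigned to a gene, on a log2 scale with 100 bp added and each library centred on the 7410 genes with a peak in all 6, was compared with limma. It was longer at 2 h for 37 of 9908 genes tested (0.373%) and shorter for 6 (0.0606%) at a Benjamini-Hochberg adjusted p under 0.05. At an unadjusted p under 0.05 there were 1249 genes. Of the 37 longer genes 8 were small RNAs or gene models. The groups did not overlap for any of these 43 genes, but before centring both 2 h libraries exceeded both unstimulated ones at 52.3% of the genes tested and were below them at 2.09%. The count of 37 fell to 4 without unstimulated replicate 1, to 3 without 2 h replicate 1 and to 4 without 2 h replicate 2, and rose to 138 or 145 without 30 min replicate 1 or 2. The count of 6 was 0, 1, 2 and 2 without unstimulated replicate 1, unstimulated replicate 2, 2 h replicate 1 and 2 h replicate 2, and 20 or 41 without a 30 min library.

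Among the 37 longer genes, Egr2 and Egr3 had the largest changes. They encode zinc finger factors induced early by the T cell receptor. Egr2 (chr10:67534469-67542188, build mm10) had no assigned peak in either unstimulated library and 10168 and 11706 bp of called DNA at 2 h. Egr3 (chr14:70077317-70082613) likewise went from none in both to 10455 and 10963 bp. In both genes the 2 h libraries were close to each other and far from the unstimulated ones. On the log2 scale the centred change was 6.31 ± 0.16 (SE) for Egr2 (limma adjusted p = 0.000724) and 6.28 ± 0.24 for Egr3 (limma adjusted p = 0.00155). With no peak before, the size of these changes is set by the length added: with 1000 bp they were 3.30 and 3.27. Both unstimulated values were then the same 100 bp before centring. The SE and p therefore hold no spread of polymerase signal between those 2 libraries. This applies to every gene without a peak in both libraries of a group, such as Tnfsf8, Ccl3 and Ccl4 below. Egr1, which had a short peak before activation, measured 529 and 976 bp in the unstimulated libraries and 6181 and 7097 bp at 2 h (log2 change 2.55 ± 0.19, limma adjusted p = 0.0132). The Egr2 promoter is shown because its CArG box, the binding sequence of serum response factor, lies within it. The window runs from 250 bases before to 50 after the RefSeq start, here chr10:67537619-67537918 on the plus strand of GRCm38.p6 (mm10). The CArG box is in capitals and begins 72 bases before the start; 1.55% of 27025 RefSeq promoters of this length hold one on either strand.
Egr2: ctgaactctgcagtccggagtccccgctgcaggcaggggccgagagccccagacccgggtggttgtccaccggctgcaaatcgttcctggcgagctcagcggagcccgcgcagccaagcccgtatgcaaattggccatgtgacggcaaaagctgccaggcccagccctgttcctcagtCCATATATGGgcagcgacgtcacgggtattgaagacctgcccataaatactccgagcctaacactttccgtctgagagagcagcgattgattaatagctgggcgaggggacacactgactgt

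The Nr4a family encodes orphan nuclear receptors induced by antigen. Nr4a3 (chr4:48045078-48086447) measured 479 and 628 bp in the unstimulated libraries and 13614 and 14902 bp at 2 h, a log2 change of 3.99 ± 0.18 (limma adjusted p = 0.00283). It missed the threshold with peaks at -log10 q of 5 or more (limma adjusted p = 0.12) and with lists of equal length (limma adjusted p = 0.0662). Nr4a1 had no peak in unstimulated replicate 1, 483 bp in replicate 2, and 11213 and 11338 bp at 2 h, but with an SE of 0.71 on a change of 5.08 it missed the threshold (limma adjusted p = 0.0738). Fos, the classical immediate early gene, measured 1116, 1160, 1110 and 978 bp in the 4 libraries and gave no change past the test. Of 34 listed immediate early genes 27, 28, 32 and 32 had a peak in the 4 libraries. Of the 32 tested, 4 were longer and 0 shorter, against 0.373% and 0.0606% of all genes tested. Their median log2 change was 0.76, against -0.03 over all genes tested.

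Ligands made by helper T cells formed the next group. Cd40lg (chrX:57212143-57224042), the CD40 ligand through which helper cells activate B cells, measured 681 and 581 bp in unstimulated cells and 15507 and 17083 bp at 2 h (log2 change 4.01 ± 0.25, limma adjusted p = 0.00725). Tnfsf8, which encodes the CD30 ligand, had no peak in the unstimulated libraries and 5736 and 5197 bp at 2 h (log2 change 5.32, or 2.42 with 1000 bp added, limma adjusted p = 0.047). It missed the threshold with the replicate number as a block, without centring and at -log10 q of 5 or more (limma adjusted p = 0.0764, 0.0516 and 0.204). The chemokine genes Ccl3 and Ccl4, which lie next to each other on chromosome 11, also had none before. At 2 h Ccl3 had 3952 and 3843 bp and Ccl4 had 5205 and 5682 bp (limma adjusted p = 0.00725 and 0.00441), log2 changes of 4.84 and 5.31, or 2.02 and 2.41 with 1000 bp added. Of 10 listed TNF superfamily ligands 3, 3, 6 and 7 had a peak in the 4 libraries. Of the 7 tested 2 were longer, against 0.373% of all genes tested.

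Cblb, the genes of 2 inhibitory cell surface proteins and the NF-kB-linked genes Nfkbia, Ikbke and Bcl2a1b were also longer. Cblb (chr16:52031230-52208047), a ubiquitin ligase that restrains receptor signalling, measured 863 and 1614 bp in unstimulated cells and 7913 and 10164 bp at 2 h (log2 change 2.34 ± 0.20, limma adjusted p = 0.0208). Cd274, which encodes the inhibitory ligand PD-L1, measured 885 and 856 bp and then 5495 and 6104 bp (limma adjusted p = 0.0282). The inhibitory receptor gene Lilrb4a went from 562 and 616 bp to 7480 and 7889 bp (limma adjusted p = 0.00848). In all 3 genes the groups were far apart relative to the spread within each. Of 43 listed feedback regulators 40 were tested, and Cblb alone was longer, against 0.373% of all genes tested. The median log2 change of the list was 0.011. Nfkbia, the inhibitor that NF-kB itself induces, measured 1118 and 1559 bp and then 8530 and 9615 bp (limma adjusted p = 0.035). Ikbke, a kinase of that pathway, measured 819 and 1083 bp and then 3858 and 4046 bp (limma adjusted p = 0.0253), and the survival gene Bcl2a1b 1198 and 1518 bp and then 6537 and 6567 bp (limma adjusted p = 0.0219). Of 31 listed NF-kB pathway genes, which do not include Ikbke, 30 were tested. Of these 2 were longer, Nfkbia and Bcl2a1b, against 0.373% of all genes tested, and the median log2 change was 0.79. Further longer genes were Smim3, Rps27, Cd82, Smox, St3gal1, Abtb2, Mt2, Ece1, Map2k3os and Cog5, among which Smim3 had the largest log2 change, 2.42.

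Genes of the Th1 state and several activation regulators had long peaks in both states. Irf4, a transcription factor of activated lymphocytes, measured 3513 and 2772 bp and then 23134 and 24360 bp, the longest of the genes shown, yet its log2 change of 2.41 ± 0.37 missed the threshold (limma adjusted p = 0.0881). Ifng, the hallmark Th1 cytokine, measured 8006 and 3459 bp without stimulation and 10545 and 12175 bp at 2 h, and its unstimulated libraries were themselves far apart (log2 change 0.61 ± 0.54, limma adjusted p = 0.66). Tbx21, the gene of the Th1 master regulator T-bet, measured 2094 and 2374 bp and then 7579 and 4265 bp (limma adjusted p = 0.446). Myc measured 4652 and 4969 bp and then 10096 and 10122 bp (limma adjusted p = 0.502). In each of these genes both 2 h libraries were above both unstimulated ones before centring, as in 52.3% of all genes tested. No peak in the 4 libraries was assigned to Tnf, since 1 broad peak over the whole of Tnf was assigned to a neighbouring microRNA: it covered all 4641 bp of the gene and its flanks in every library, so length could not register a change there.

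**Figure D1:**
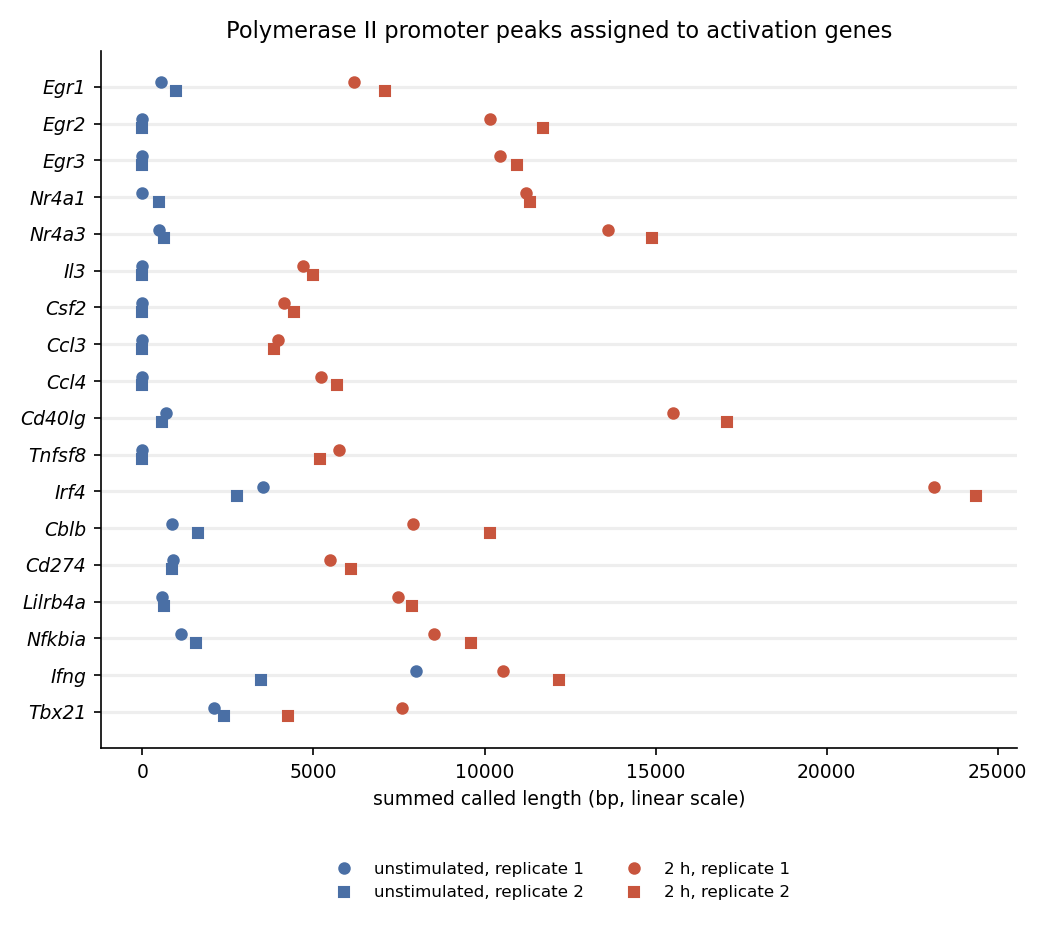
Summed length of called promoter peaks (bp, linear x axis) for 18 genes in the 2 unstimulated libraries (blue) and the 2 libraries after 2 h (red), replicate 1 as circles and replicate 2 as squares. The groups are apart in every gene shown, as 2 h is above unstimulated in 52.3% of all genes tested before centring. Nr4a1, Il3, Csf2, Irf4, Ifng and Tbx21 missed the length test, and Fos, which gave no change past it, is not shown. Egr2, Egr3, Il3, Csf2, Ccl3, Ccl4 and Tnfsf8 sit at 0 in both unstimulated libraries.

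The added length lay mostly downstream of the start site. Downstream length was counted over the whole assigned peak, also past the end of the gene. Over the 37 longer genes the median called DNA downstream of the start was 356 and 360 bp in the unstimulated libraries and 4487 and 4229 bp at 2 h. Upstream it was 269 and 435 bp and then 1225 and 1625 bp. Over the 7970 genes with a peak in all 4 libraries the downstream medians were 402, 525.5, 690 and 812 bp and the upstream medians 358.5, 472, 466 and 575 bp. Cd40lg had 525 and 282 bp downstream before and 14878 and 15458 bp at 2 h, against 156, 299, 629 and 1625 bp upstream. Its downstream length at 2 h thus exceeded the length of the gene itself. Cblb likewise had 547 and 990 bp downstream and then 7253 and 9441 bp, against 316, 624, 660 and 723 bp upstream. The 37 genes were chosen by their length, so only the split between the sides is added here, and it carries no test. Of the 37, 8 were small RNAs or gene models. Some, such as Hcst below, were assigned peaks that lay mostly outside their own span.

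**Figure D2:**
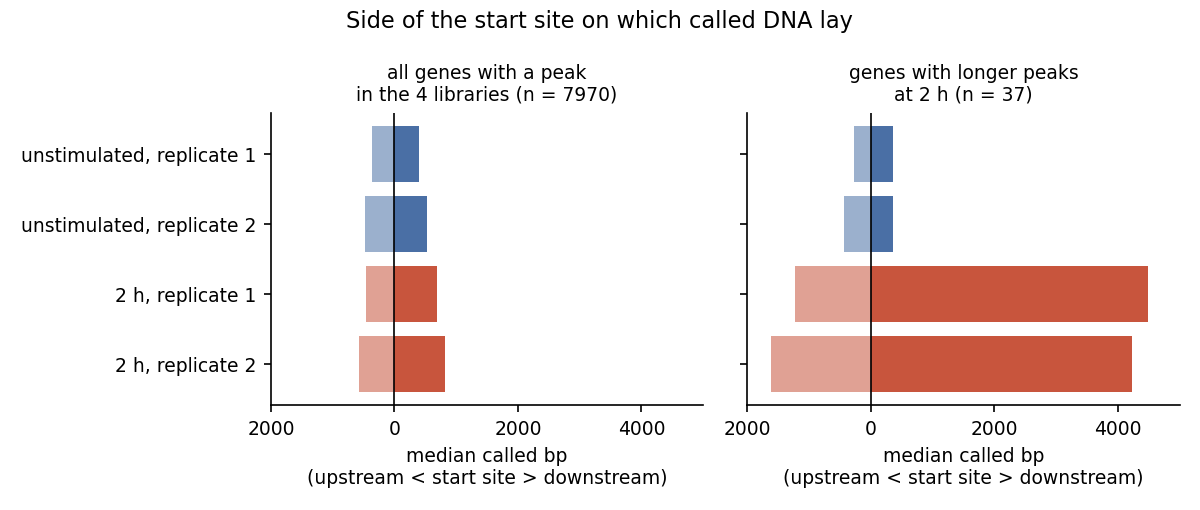
Median called DNA (bp) upstream (pale bars, left of 0) and downstream (full bars, right of 0) of the start site in each of the 4 libraries, for 7970 genes with a peak in all 4 and for the 37 genes with longer peaks. In the 37 genes the downstream median is 4487 and 4229 bp at 2 h and 356 and 360 bp without stimulation.

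Several calls rested on the authors' assignment of a merged peak to 1 gene. When every promoter peak overlapping a gene's span or 1000 bp either side was counted, 17 of the 37 longer genes passed, all 37 kept a positive change, and 28 genes passed in all. Egr1 (limma adjusted p = 0.07), Nfkbia (limma adjusted p = 0.129), Rps27, Mt2, Ece1, Map2k3os and Cog5 did not pass by position. Nor did Hcst, Fes, Pofut1, Trappc4 and Dnaaf2: Hcst, for example, had 13547 and 13078 assigned bp at 2 h but 1920 and 1935 bp within its own span. None of the 6 shorter genes passed by position. Shisa5 had 6430 and 8258 assigned bp before and 481 and 653 bp at 2 h, while its span held 7785, 9655, 10166 and 10324 bp. Gas5 and Rps3a1, hosts of small nucleolar RNAs, and Obsl1 had no assigned peak at 2 h, although their spans held at least as much called DNA as before. By position limma called 0 genes shorter, with 1250 genes at an unadjusted p under 0.05 in either direction. Egr2, Egr3, Ccl3, Ccl4, Cd40lg, Lilrb4a and Smim3 passed under every setting tried that kept all unstimulated and 2 h libraries, while Tnfsf8, Cd274, Nfkbia, Bcl2a1b, Ikbke, Cd82, Abtb2, Mt2, Ece1, Fes, Dnaaf2, Cog5 and Map2k3os missed the threshold with the replicate block (limma adjusted p from 0.0508 to 0.0794).

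A promoter peak present in both 2 h libraries and absent from both unstimulated ones was found at 268 of 10213 genes (2.62%), 62 of them small RNAs or gene models. By position 243 of 10321 genes had one (2.35%), and 224 genes had it both ways. The reverse pattern was found at 69 genes (0.676%), but 58 of these were covered by position in all 4 libraries and 11 of 10321 genes (0.107%) were lost by position. Without unstimulated replicate 2 the count of 268 was 1103, and without 2 h replicate 1 it was 528. The count of 69 was 188, 175, 120 and 164 without unstimulated replicate 1, unstimulated replicate 2, 2 h replicate 1 and 2 h replicate 2.

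Cytokine and chemokine genes were among those with a new peak. Of 28 listed, 10, 11, 19 and 19 had a promoter peak in the 4 libraries. In both 2 h libraries 8 gained one, against 2.62% of the 10213 genes. Il3 and Csf2, neighbouring genes for growth factors of myeloid cells, had 4683 and 4995 bp and 4135 and 4436 bp at 2 h. Il2, the growth factor of T cells, had 683 and 1135 bp, and the chemokine genes Ccl1 and Ccl5 had 1061 and 1143 bp and 503 and 597 bp. Il13, a Th2 cytokine, had 307 and 697 bp, and Ccl3 and Ccl4 complete the 8. None of the 8 had a peak in the unstimulated libraries. Ccl3 and Ccl4 passed the length test, while the other 6 did not (limma adjusted p from 0.0946 for Il3 to 0.521 for Il13). Il13 and Il4 are also markers of the Th2 state: Il4 had 0 and 527 bp before and 2120 and 1249 bp at 2 h, and Gata3 had 786 and 2649 bp and then 3271 and 4071 bp. Of the TNF superfamily ligands 3 gained a peak: Tnfsf8, Tnfsf11 (1442 and 1874 bp) and Tnfsf14 (833 and 1593 bp). Among receptors, Havcr2, the inhibitory receptor TIM-3, gained 2103 and 1828 bp and Cd83 gained 210 and 669 bp.

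The Il2 promoter (chr3:37125905-37126204, minus strand, GRCm38.p6) is shown because the gene is the classical target of T cell activation. Capitals mark 2 copies of the NFAT core GGAAA, the second on the other strand, and the TATA box TATAAA, which do not overlap. In RefSeq promoters of this length, read on both strands, GGAAA occurs in 61.2% and TATAAA in 14.1%. Of 152 genes gained by assignment and by position that have a promoter in the table, 54.6% hold GGAAA and 7.89% hold TATAAA. Among the 7780 genes with a promoter peak in any of the 4 libraries and a promoter in the table, the shares are 58.3% and 5.90%.
Il2: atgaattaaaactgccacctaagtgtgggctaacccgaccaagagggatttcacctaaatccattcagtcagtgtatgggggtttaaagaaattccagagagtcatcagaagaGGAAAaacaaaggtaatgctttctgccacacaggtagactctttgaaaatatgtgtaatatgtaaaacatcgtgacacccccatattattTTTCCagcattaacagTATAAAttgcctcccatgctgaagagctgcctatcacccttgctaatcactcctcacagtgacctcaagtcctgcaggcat

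Mir155hg (chr16:84713023-84715245), the host transcript of miR-155, a microRNA of activated lymphocytes, also gained a peak. It had none before and 5342 and 17245 assigned bp at 2 h, of which 2658 and 4223 bp lay within 1000 bp of its RefSeq span. The 2 h libraries differed widely, and it missed the length test (limma adjusted p = 0.127). The miR-17 cluster host, Mir17hg, showed the same pattern by position, with no called DNA within 1000 bp of its RefSeq span in the unstimulated libraries and 2824 and 4339 bp at 2 h, assigned to Mir17hg and to Mir18 beside it. The mature microRNAs of both transcripts are given because their seeds (bases 2 to 8, in capitals) fall into few groups: miR-17-5p and miR-20a-5p share one seed, miR-19a-3p and miR-19b-3p another, and miR-155-5p, miR-18a-5p and miR-92a-3p have their own.
mmu-miR-155-5p: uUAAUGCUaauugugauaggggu
mmu-miR-17-5p: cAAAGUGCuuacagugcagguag
mmu-miR-20a-5p: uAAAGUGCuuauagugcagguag
mmu-miR-18a-5p: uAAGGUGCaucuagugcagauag
mmu-miR-19a-3p: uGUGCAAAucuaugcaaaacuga
mmu-miR-19b-3p: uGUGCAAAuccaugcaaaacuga
mmu-miR-92a-3p: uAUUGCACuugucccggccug

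Of the 11 genes lost by position, S1pr1, the sphingosine receptor that lets T cells leave lymphoid tissue, had 975 and 902 bp before and none at 2 h. Tmevpg1, a noncoding gene beside Ifng, had 644 and 417 bp and then none. Rgs10, a regulator of G protein signalling, had 432 and 462 bp and then none. All 3 also carried a short peak in 1 of the 2 libraries made at 30 min, of 633, 383 and 417 bp. None of the 3 passed the length test (limma adjusted p = 0.193 for S1pr1, 0.315 for Tmevpg1 and 0.329 for Rgs10).

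Peak height was compared by rank, because fold enrichment is scaled within each library. The authors' fold enrichment of the highest promoter peak of a gene was ranked among the 7410 genes with a peak in all 6 libraries, so that the lists were of equal length, and the normal scores of the ranks were tested with limma. The rank was higher at 2 h for 71 genes (0.958%) and lower for 45 (0.607%), with 1519 genes at an unadjusted p under 0.05. With the replicate number as a block the counts were 570 and 468, and with untransformed percentiles they were 3 and 2. Both 2 h percentiles lay above both unstimulated ones at 1885 genes (25.4%) and below them at 1976 (26.7%). In the order unstimulated replicate 1, unstimulated replicate 2, 2 h replicate 1, 2 h replicate 2, leaving out a library gave 20, 24, 1 and 1 higher and 5, 7, 1 and 2 lower. With peaks ranked by position, a check added after the values were seen, 70 of the 71 and 44 of the 45 passed. A rank is relative: a gene can change rank because others moved.

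Early regulators and NF-kB genes were among those ranked higher. Relb (chr7:19606217-19629438), a subunit of NF-kB, stood at percentiles 11.4 and 8.91 of fold enrichment without stimulation and at 91.8 and 94.5 after 2 h (normal score change 2.77 ± 0.29 SE, limma adjusted p = 0.00409). Nr4a3 went from 0.439 and 1.01 to 73.7 and 77.5 (limma adjusted p = 0.00239). The 4 libraries fell into 2 tight pairs in both genes. The transcriptional repressor Tgif1 went from 3.89 and 20.2 to 90.3 and 96.0, the stress factor Atf3 from 6.77 and 0.789 to 65.5 and 69.1, and the lymphoid repressor Gfi1 from 52.3 and 34.7 to 98.3 and 98.0. Tnfaip3, which encodes the NF-kB inhibitor A20, was already at 85.7 and 74.7 and reached 99.7 and 99.8 (limma adjusted p = 0.0359). Cd68 went from 0.978 and 6.04 to 86.4 and 66.8, and 7065 bp of its called DNA in 2 h replicate 2 lay upstream of its start; it was the sole myeloid marker with a peak. Of 31 NF-kB pathway genes 27 were ranked, 3 were higher and 0 lower; their median percentile was 60.3 without stimulation and 72.0 at 2 h, and 17 were higher and 1 lower without overlap. The median change per gene was 17.6 percentile points in the list and -0.42 over all genes ranked. Over all genes ranked, 0.958% were higher and 0.607% lower by the test, and 25.4% were higher and 26.7% lower without overlap. Cytokines and receptors gave no call: of 28 and 30 listed, 10 and 20 were ranked.

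Several genes for making ribosomes ranked higher at 2 h, without long peaks. Heatr1, a component of the small subunit processome, went from percentiles 8.13 and 6.26 to 77.6 and 70.6 (limma adjusted p = 0.0233), with 400 and 557 bp called before and 947 and 1065 bp at 2 h. Gar1, of the box H/ACA particle, went from 24.5 and 20.8 to 90.6 and 82.4, and Rrp12, a factor of ribosome maturation, from 0.688 and 1.93 to 40.7 and 27.9. Polr1b, a subunit of RNA polymerase I, which makes ribosomal RNA, went from 13.5 and 2.04 to 75.3 and 81.7 (limma adjusted p = 0.0434). Of 28 listed ribosome biogenesis genes 22 were ranked: 3 (Gar1, Rrp12 and Polr1b) were higher and 0 lower by the test, 15 were higher and 0 lower without overlap, and the median percentile was 26.7 before and 60.7 at 2 h, against 49.97 and 49.84 over all genes ranked. Per gene of this list, the median change was 21.8 percentile points. The shares over all genes ranked were 0.958% higher and 0.607% lower by the test. Without overlap they were 25.4% higher and 26.7% lower. None of the ribosome biogenesis list was longer, and its median log2 change in length was 0.32. A wider list of 54 genes, labelled pre-ribosome processing, was drawn up after the values were seen. Of 39 ranked, 10 were higher and 0 lower, against 0.958% and 0.607% of all genes ranked. Among the 10 were Heatr1, Nob1, Ltv1, Wdr36, Aatf, Rbm19, Rpp38 and the RNA methyltransferase gene Nsun2. Being chosen that way the list supports nothing further.

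Other parts of the protein synthesis machinery gave mixed counts. Of 59 mitochondrial ribosomal protein genes 53 were ranked, and Mrpl24 and Mrpl38 were higher; 29 were higher and 3 lower without overlap, and the median percentile was 33.4 and then 57.1. Of 73 cytosolic ribosomal protein genes 59 were ranked, none passed, 27 were higher and 4 lower without overlap, and the median was 77.7 and then 89.4. Among 18 amino acid supply genes ranked, Slc7a5, a transporter of large neutral amino acids, passed, going from 76.3 and 72.1 to 98.4 and 98.8. Hk2, the hexokinase of activated cells, went from 49.6 and 62.4 to 97.4 and 99.5, the only one of 18 glycolysis genes to pass. Hspd1, a mitochondrial chaperonin, went from 53.1 and 42.7 to 93.3 and 90.2, and Nelfa, a subunit of the pausing factor NELF, from 41.4 and 23.3 to 86.1 and 85.4. For comparison, 66 oxidative phosphorylation genes had medians of 46.1 and 45.85, with 14 higher and 16 lower without overlap, and Uqcrq alone passed. Median changes per gene were 15.8 percentile points for mitochondrial and 4.72 for cytosolic ribosomal proteins, and 0.44 for oxidative phosphorylation. Over all genes ranked 0.958% were higher and 0.607% lower by the test, and 25.4% higher and 26.7% lower without overlap.

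The promoters of Rpp38 and Ltv1 are shown because both hold the E-box CACGTG, the sequence that Myc binds among other factors. Rpp38 (chr2:3332579-3332878, minus strand), a protein of ribonuclease P, went from percentiles 3.4 and 37.9 to 91.7 and 94.9. Ltv1 (chr10:13193088-13193387, minus strand), a small subunit assembly factor, went from 1.88 and 16.2 to 82.4 and 65.7. Of the 71 genes ranked higher, 50 have a promoter in the RefSeq table, and 9 (18.0%) hold CACGTG. The share is 10.7% of the 5718 ranked genes with one and 7.17% of all RefSeq promoters of this length. A match is a string of letters and not a measured site.
Rpp38: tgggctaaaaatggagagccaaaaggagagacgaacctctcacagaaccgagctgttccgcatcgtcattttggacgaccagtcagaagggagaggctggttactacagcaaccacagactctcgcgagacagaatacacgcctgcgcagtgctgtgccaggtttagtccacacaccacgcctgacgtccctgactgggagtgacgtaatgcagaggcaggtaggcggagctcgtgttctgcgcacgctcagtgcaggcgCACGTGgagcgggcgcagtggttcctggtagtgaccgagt
Ltv1: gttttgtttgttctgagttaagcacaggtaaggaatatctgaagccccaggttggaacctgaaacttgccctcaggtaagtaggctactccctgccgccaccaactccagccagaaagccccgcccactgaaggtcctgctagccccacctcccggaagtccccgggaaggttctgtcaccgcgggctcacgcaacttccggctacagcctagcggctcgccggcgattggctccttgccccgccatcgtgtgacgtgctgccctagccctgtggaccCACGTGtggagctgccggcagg

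**Figure D3:**
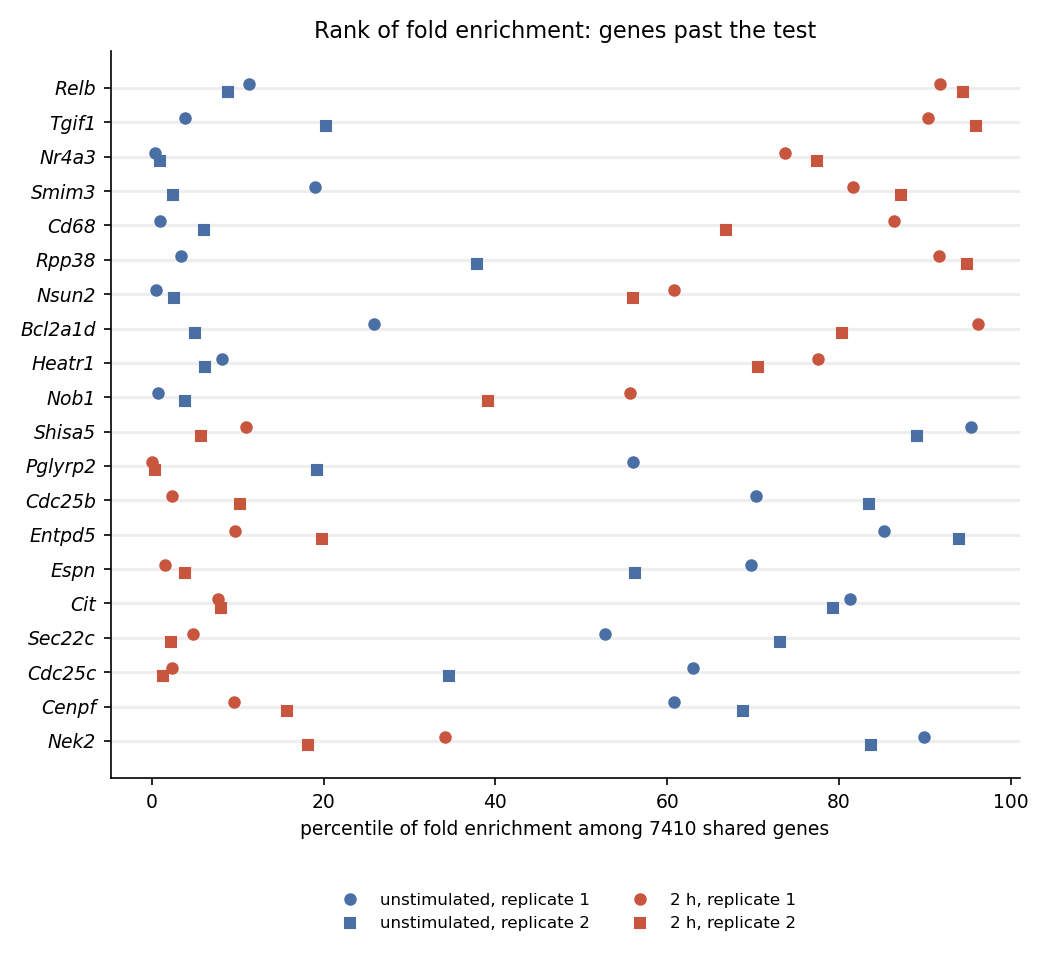
Percentile of fold enrichment (x axis, 0 to 100) among the genes with a peak in all 6 libraries, for 10 genes ranked higher and 10 ranked lower at 2 h. Blue marks are unstimulated and red marks 2 h libraries, replicate 1 as circles and replicate 2 as squares; in each gene shown the 2 colours do not overlap, as in Relb (11.4 and 8.91 against 91.8 and 94.5).

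Several genes of mitosis ranked lower at 2 h. Cit, the citron kinase of cytokinesis, stood at percentiles 81.3 and 79.3 without stimulation and at 7.70 and 8.07 after 2 h (normal score change -2.27 ± 0.30 SE, limma adjusted p = 0.0181). Cdc25b, a phosphatase that activates mitotic kinases, went from 70.3 and 83.5 to 2.38 and 10.2, and its relative Cdc25c from 63.0 and 34.6 to 2.38 and 1.3. The centromere protein gene Cenpf went from 60.7 and 68.8 to 9.57 and 15.8 (limma adjusted p = 0.0433), and the centrosomal kinase gene Nek2 from 89.9 and 83.7 to 34.2 and 18.2. Peaks of these genes were still called at 2 h: Cenpf, for example, had 969 and 1089 bp called before and 696 and 1068 bp at 2 h, and Nek2 had 769, 951, 731 and 912 bp. Of 30 listed cell cycle genes 29 were ranked: none passed, 3 were higher and 15 lower without overlap, and the median percentile was 60.4 and then 53.6. The median change per gene of this list was -11.4 percentile points. Without overlap 25.4% of all genes ranked were higher and 26.7% lower. A list of 45 genes of mitosis and the G2 phase was drawn up after these values were seen. Of 42 ranked, 9 were lower and 0 higher, against 0.607% and 0.958% of all genes ranked. The list supports nothing beyond the named genes. Of other mitosis genes, Ccnb1 stood at 50.5 and 12.6 and then 65.4 and 50.7, and Plk1 at 62.7 and 83.7 and then 63.9 and 72.3; neither passed the test (limma adjusted p = 0.306 and 0.791).

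The Cenpf promoter (chr1:189688037-189688336, minus strand) is shown for its CCAAT boxes and its TTTGAA, the letters of the cell cycle homology region that some mitotic promoters carry. All 3 matches are in capitals and do not overlap. Of 29 genes ranked lower with a promoter in the table, 14 (48.3%) hold CCAAT on either strand and 4 (13.8%) hold TTTGAA. Over the 5718 ranked genes the shares are 38.4% and 11.5%, and over all RefSeq promoters of this length 37.8% and 18.1%.
Cenpf: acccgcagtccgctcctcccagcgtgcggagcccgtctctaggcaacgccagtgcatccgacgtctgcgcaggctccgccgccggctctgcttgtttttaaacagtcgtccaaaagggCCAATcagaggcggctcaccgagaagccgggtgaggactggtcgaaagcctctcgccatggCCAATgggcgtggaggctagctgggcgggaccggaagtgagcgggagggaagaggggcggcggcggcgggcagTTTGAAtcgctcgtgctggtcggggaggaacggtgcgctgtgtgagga

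Other genes ranked lower were of various functions. Entpd5, a nucleotide-hydrolysing enzyme, went from percentiles 85.2 and 94.0 to 9.65 and 19.9. Espn, which encodes an actin-bundling protein, went from 69.7 and 56.2 to 1.53 and 3.87, and Sec22c, of vesicle traffic, from 52.8 and 73.2 to 4.86 and 2.29. Pglyrp2 went from 56.0 and 19.3 to 0.0202 and 0.439, so its unstimulated libraries were themselves far apart. Shisa5 went from 95.4 and 89.1 to 10.9 and 5.71. Its shorter called length did not pass by position, as described above. With peaks ranked by position all 45 genes ranked lower, Shisa5 among them, kept a negative change in rank. Of 40 histone genes 35 were ranked, Hist3h2ba passed as lower (82.0 and 87.2, then 25.7 and 41.7), and 23 were lower and 0 higher without overlap. Their median percentile was 97.6 and then 90.8, so they remained near the top. Without overlap 9 of 19 interferon response genes were lower and 1 higher, 9 of 18 cholesterol genes lower and 0 higher, and 9 of 21 genes of the T cell receptor and proximal signalling lower and 1 higher; over all genes ranked the shares are 26.7% lower and 25.4% higher. None passed the test in any of these lists.

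**Figure D4:**
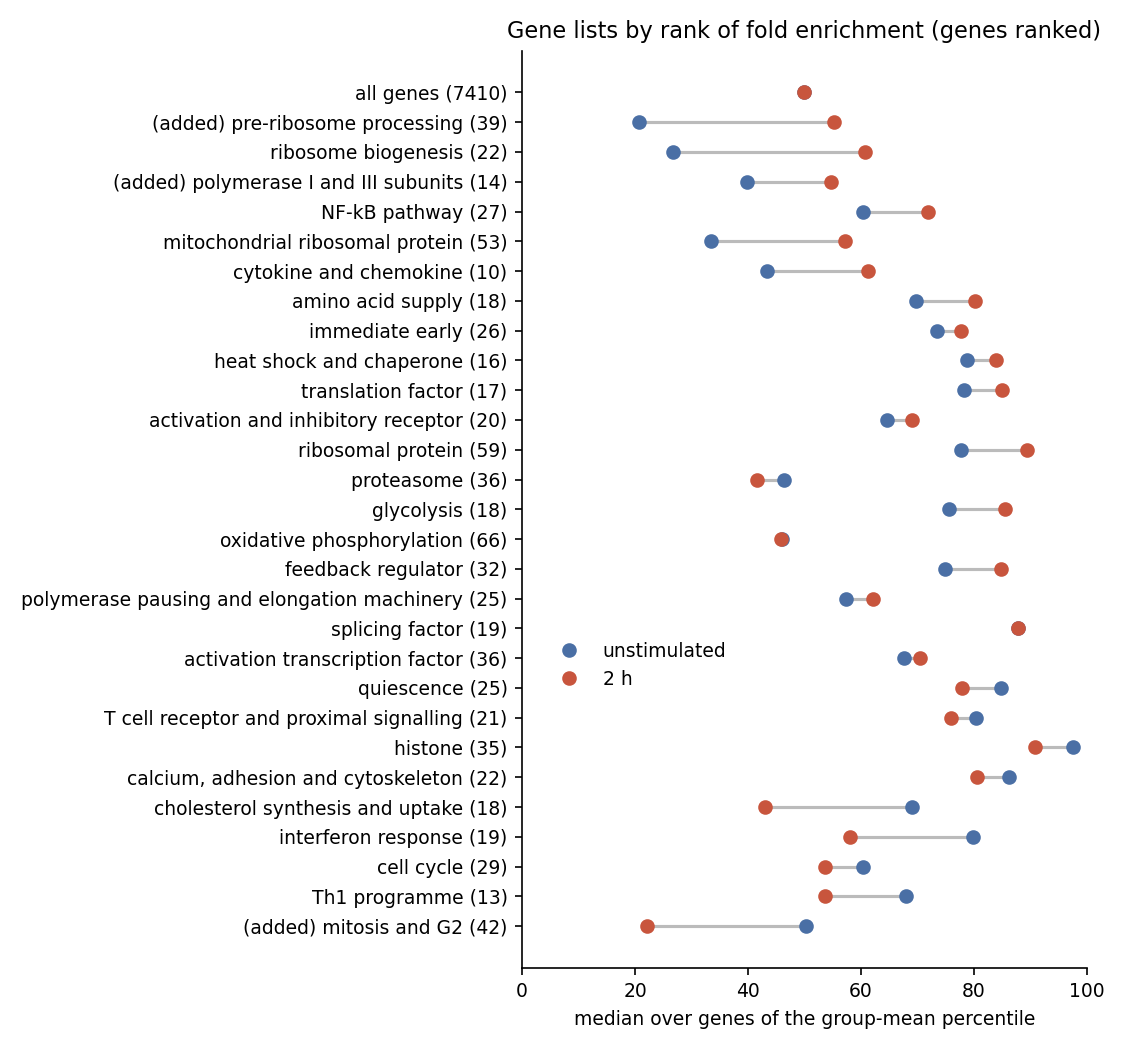
Median percentile of fold enrichment of each gene list in the unstimulated (blue) and 2 h (red) libraries, with the number of genes ranked in brackets; lists drawn up after the values were seen are marked as added. All genes sit at 49.97 and 49.84, ribosome biogenesis moves from 26.7 to 60.7 and interferon response from 79.8 to 58.1. The distance between 2 list medians is not the median change per gene. That change was 21.8 percentile points for ribosome biogenesis, -10.6 for interferon response and -7.62 for the cholesterol genes, whose medians are 69.0 and 43.0.

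Called length and rank had 8 genes past both tests in common, among them Nr4a3, Cd40lg and Smim3 as higher and Shisa5 as lower. The 71 genes ranked higher had median called DNA of 355 and 466 bp downstream of the start before and 1180 and 1256 bp at 2 h, and the 45 ranked lower 606 and 683 bp and then 437 and 574 bp. Egr1, with its longer peak, stood at percentiles 14.6 and 7.71 and then 83.4 and 37.0, and missed the rank test (limma adjusted p = 0.154).

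Summits outside the promoter tables show polymerase in gene bodies and between genes. There were 10528 and 7244 of them in the unstimulated libraries and 9537 and 11085 at 2 h, and merging those within 500 bp gave 21523 sites, of which 2897 had a summit in all 4 libraries. A summit in both 2 h libraries and neither unstimulated one was found at 1901 sites (8.83%), and the reverse at 297 (1.38%). With lists of equal length the counts were 1098 and 333. With merging within 5000 bp, added after the values were seen, the counts were 1323 and 78. Without unstimulated replicate 2 and without 2 h replicate 1 or 2 the count of 1901 was 3009, 5672 and 4330, and the count of 297 was 1110, 5741 and 684 without unstimulated replicate 1, unstimulated replicate 2 and 2 h replicate 2. Gained sites lay in a gene body in 56.4% of cases and within 10 kb past a 3′ end in 11.7%, against 45.4% and 8.08% of sites in all 4 libraries. Lost sites were in a gene body in 40.1% and over 10 kb from a gene in 40.7%. Only RefSeq protein-coding genes were used for these positions, so a site in a noncoding gene or a T cell receptor segment can count as far from a gene. A gene without a RefSeq promoter had no strand, and a site outside it but within 10 kb was counted at its 5′ end. Of the gained sites 55.3% were over 5 kb from any unstimulated summit, and of the lost sites 23.9% were over 5 kb from any 2 h summit. Scores at these sites were low for their own summit lists. The median percentile of score was 22.0 and 29.7 for gained sites in 2 h replicates 1 and 2, and 32.3 and 22.0 for lost sites in unstimulated replicates 1 and 2. The summit lists give no widths, so a lost summit and several summits merged into one wide peak cannot be told apart.

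**Figure D5:**
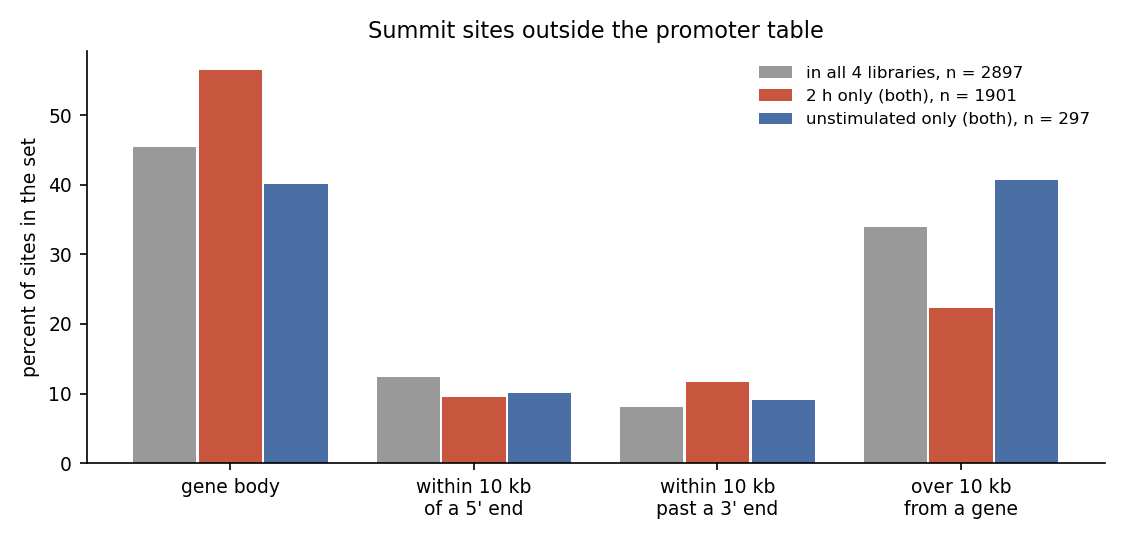
Position of summit sites outside the promoter tables relative to RefSeq protein-coding genes, in percent of each set (y axis, from 0): sites in all 4 libraries (grey), in both 2 h libraries only (red) and in both unstimulated libraries only (blue). Gained sites are in gene bodies in 56.4% of cases, sites in all 4 libraries in 45.4% and lost sites in 40.1%.

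Gained sites were spread over many genes, with at most 14 of the 1901 nearest to any 1 gene. Myc was the nearest coding gene of those 14, spread over 694.5 kb of the region beyond its 3′ end (chr15:62138997-62833544), where the 4 libraries held 15, 11, 36 and 35 summits. Il10, a cytokine that limits inflammation, had 8 within 20.9 kb (chr1:130995589-131016528), where the unstimulated libraries held 0 summits each and the 2 h libraries 11 each. Exoc2, whose gene lies beside Irf4, had 8 in its body, with 0 and 2 summits before and 12 and 10 at 2 h over that stretch, and Egln3, a prolyl hydroxylase, had 8. Another 7 sites each were nearest to Ifng, Bach2, Frmd4b, Itpr1 and Rbpj; around Ifng they covered 102.9 kb, with 7, 9, 18 and 17 summits in the 4 libraries. Those of Frmd4b were all in its body, with 1, 2, 11 and 11 summits. Itpr1 had 0, 3, 14 and 14 and Rbpj 5, 6, 16 and 15 in the 4 libraries. The stretches at Egln3 and Bach2 already held many summits before: 14, 13, 27 and 19 over 206.3 kb at Egln3, and 28, 22, 32 and 40 over 415.4 kb at Bach2. Bach2 was also nearest to 2 lost sites, and Myc, Ifng and Frmd4b to 1 each. Lost sites were most often nearest to Dad1, with 8, then to a gene model on chromosome 12, with 6, and to Prss2, with 5. Dad1, which also had 4 gained sites, and Prss2 border the T cell receptor alpha and beta loci. The stretch at Prss2 (chr6:41532935-41553603) held 5 and 7 summits before and none in either 2 h library.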

How the data were processed

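Chromatin immunoprecipitation and sequencing of RNA polymerase II was read from 6 libraries, 2 unstimulated, 2 after 30 min and 2 after 2 h. The submitters' processing notes name BWA 0.7.13, Picard 1.119, MACS2 2.1.0 and the mouse build mm10. Per the file headers, the authors deposited for each library a promoter peak table with peak position, pileup (a coverage signal), fold enrichment over background (a ratio), -log10 q and the assigned gene, and a summit list with a -log10 q per summit. Depth per sample is not given as a read total, so background coverage stands in for it. H3K36me3 and input libraries were not analysed here.

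Widths were summed per gene symbol, 100 bp was added, log2 values were centred on genes with a peak in all 6 libraries, and each gene called in 2 or more libraries was tested with limma 3.58.1 in R 4.3.3, with the 3 groups in 1 fit. Before centring, log2 medians lay -0.38 (unstimulated replicate 1), -0.05 (unstimulated replicate 2), 0.15 (2 h replicate 1) and 0.38 (2 h replicate 2) from their mean over all 6 libraries. Centring subtracted these offsets, so it raised the unstimulated values and lowered the 2 h values. Ranks of fold enrichment were turned into normal scores and tested in the same way. Every gene test was adjusted over all genes tested by the Benjamini-Hochberg method, and both tests were tried on simulated data. A permutation of 2 libraries against 2 has 3 splits and cannot give a p under 0.333, so none was used. Presence and summit sites have no test.

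Genes named by length were the 15 largest rises and 8 largest falls past the threshold; by rank, the 8 largest each way; by presence, the 10 longest gained and the 5 longest lost; by summits, the 5 genes with most new sites; and members of the lists. Small RNAs and gene models among them were counted, not named, apart from hosts of microRNAs. Further genes past a threshold were named after their values were seen. The members and lists were chosen with earlier results of these data known. Among the longest by assignment of the lost genes were Zc3h12d, Rpsa, Gas5 and Astl, each covered by position in all 4 libraries; another gene under that rule is not reported here.

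Gene coordinates, promoters and microRNAs are those of RefSeq on GRCm38.p6, the same assembly as mm10. Of the 10213 genes, 7780 had a promoter there. For a gene with several, the one nearest a start site in the files was taken.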

Additional observations from a re-analysis of the deposited data

How the results depend on the processing

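For called length, 37 genes longer and 6 shorter became 93 and 19 with a pseudocount of 1000 bp, 59 and 20 with quantile normalisation, 148 and 25 with the 4 unstimulated and 2 h libraries alone, and 71 and 15 with lists of equal length. The count of 6 became 1 without centring, 2 at -log10 q of 5 or more and 0 by position. Without centring 35 genes were longer, of which 22 were among the 37. Leaving out each of the 6 libraries gave 3 to 145 longer and 0 to 41 shorter. With the replicate number as a block the counts were 28 and 5, 24 and 5 of them shared. By position, the changes of Gas5, Rps3a1 and Obsl1 turned positive, at 0.13, 1.42 and 0.73 (log2); no other named change past a threshold turned its sign.

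For rank, 71 higher and 45 lower became 446 and 336 by -log10 q, 568 and 476 by pileup, 3 and 1 by the mean over a gene's peaks, 12 and 2 in complete lists, and 3 and 2 with untransformed percentiles. Leaving out a library gave 1 to 61 higher and 1 to 38 lower. With the replicate block the counts were 570 and 468, all 71 and 45 included. The labels do not say that a replicate number marks a shared mouse or day, and deviations of same-numbered libraries from their group means correlated at 0.44 between unstimulated and 30 min, 0.27 between unstimulated and 2 h, and 0.41 between 30 min and 2 h, with 2 replicate numbers.

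Genes with a lost peak became 152 with lists of equal length, 11 by position and 19 over merged promoter regions; leaving out a library gave 286 to 1103 gained and 120 to 188 lost. Summit sites gained became 1189 at -log10 q of 5 or more and 1098 with lists of equal length; sites lost became 176 at that threshold and 78 with merging within 5000 bp. Leaving out a library gave 1901 sites as 2063 to 5672 and 297 as 443 to 5741. The cause of these shifts was not tested. The main limits are 2 libraries a group, of unequal depth, and called peaks in place of read counts: a peak below threshold is absent, and a peak merged with its neighbour is credited to 1 gene.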
